A study of Sus scrofa with 6 samples.

Results

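Enzyme and receptor genes of the arachidonic acid and prostaglandin pathway were followed in pig endometrial epithelial cells exposed to seminal exosomes. The 4 genes were PTGS2, PLA2G4A, PLA2G3 and PTGER2, and all 4 were found by their symbol among 10915 genes with values. The 4 were chosen by their FPKM values in these same exosome and control libraries, so their differences between the groups are given below as a description and support no statement about the pathway.

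The exosome group held 3 libraries of primary cells at passage 3 that received 10 µg per well of exosomes for 48 h. These vesicles had been precipitated from the sperm-rich fraction of boar seminal fluid. The control group held 3 libraries of the same cells at the same passage without exosomes, and whether these wells received the carrier alone is not given in the sources used here. Cells of both groups came from uteri of healthy pigs collected at slaughter and grew in serum-containing medium on collagen. The labels do not tie libraries to individual uteri or wells, so the spread between replicates may be technical.

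Expression was read by RNA sequencing and deposited as FPKM, a fragment count scaled for transcript length and library size. Deposited FPKM summed to between 690258 and 711250 in the exosome libraries and between 721273 and 732922 in the control libraries. The depth in reads is unknown, since the values are FPKM and fragment numbers could not be settled from them. Of 14 epithelial symbols 9 were matched. Epithelial keratins were abundant in both groups, with KRT8 at 2800 ± 118 FPKM in exosome and 3037 ± 48.0 FPKM in control libraries. KRT19 was at 2925 ± 222 and 3193 ± 88.8 FPKM, and KRT18 at 1222 ± 35.6 and 1255 ± 15.0 FPKM (SD, n = 3 each). Of 10 stromal and fibroblast symbols 5 were matched, and THY1 stood highest, at 1849 ± 69.4 FPKM in exosome and 2328 ± 93.7 FPKM in control libraries. VIM was at 505 ± 63.6 and 557 ± 52.4 FPKM, and the collagen gene COL1A2 at 47.5 ± 2.46 and 50.9 ± 4.67 FPKM. The other matched collagen genes had lower means than COL1A2 in both groups. TAGLN, of smooth muscle, was at 104 ± 32.3 FPKM in exosome and 133 ± 7.14 FPKM in control libraries, with overlap. CD14 and CD68, of myeloid cells, averaged at most 3.44 FPKM, and KDR, of endothelium, at most 1.58 FPKM in either group.

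Prostaglandins are made where arachidonic acid is cut from membrane phospholipids by phospholipases, oxidised to prostaglandin H by a cyclooxygenase and then converted by terminal synthases. They leave the cell and act on G protein-coupled receptors of the same or neighbouring cells. In the pig uterus, the balance of prostaglandin E and prostaglandin F takes part in the regression or survival of the corpus luteum and in early pregnancy, and seminal plasma is known to act on this tissue.

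PLA2G4A encodes the cytosolic phospholipase that prefers arachidonate-bearing phospholipids and is activated by calcium and phosphorylation. Its level was 77.0, 88.0 and 79.2 FPKM in exosome replicates 1, 2 and 3, against 93.1, 105 and 101 FPKM in control replicates 1, 2 and 3. All exosome libraries lay under all control libraries, with exosome replicate 2 and control replicate 1 nearest to each other at a gap of 5.14 FPKM. The means were 81.4 ± 5.82 FPKM in exosome and 99.8 ± 6.14 FPKM in control libraries (SD, n = 3 each), 18.5% lower in the exosome group. The log2 change, on the log2(FPKM + 1) scale used throughout, was -0.29 with an SE of 0.07.

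PLA2G3 encodes a secreted phospholipase of the group that acts outside the cell and in secretory vesicles. Its level was 10.1, 12.8 and 12.5 FPKM in the exosome libraries, against 18.1, 18.0 and 21.6 FPKM in the control libraries. The groups did not overlap, and the gap of 5.24 FPKM between the nearest libraries was 29.1% of the control value, the widest relative gap of the 4 genes. Means were 11.8 ± 1.45 FPKM in exosome and 19.2 ± 2.02 FPKM in control libraries, 38.7% lower in the exosome group (log2 change -0.66, SE 0.10).

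PTGS2 encodes the inducible cyclooxygenase, which commits arachidonic acid to prostanoids. It was read at 208, 293 and 214 FPKM in the exosome libraries, against 323, 383 and 362 FPKM in the control libraries. Exosome replicates 1 and 3 were close to each other, and exosome replicate 2 stood 29.1 FPKM under the lowest control library. The mean was 238 ± 47.7 FPKM in exosome and 356 ± 30.8 FPKM in control libraries, 33.0% lower in the exosome group (log2 change -0.59, SE 0.13). The highest library was 1.41 times the lowest among the exosome libraries and 1.19 times among the control libraries.

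PTGER2 encodes a receptor for prostaglandin E that raises cyclic AMP through a stimulatory G protein. It was the single gene of the 4 that stood higher, at 2.84, 2.47 and 3.00 FPKM in the exosome libraries, against 2.24, 2.28 and 2.07 FPKM in the control libraries. The groups did not overlap, by a margin of 0.187 FPKM between exosome replicate 2 and control replicate 2. Its mean was 2.77 ± 0.272 FPKM in exosome and 2.20 ± 0.114 FPKM in control libraries, 26.0% higher (log2 change 0.24, SE 0.09). At this low level the log2 scale with an added 1 understates the ratio.

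**Figure D1:**
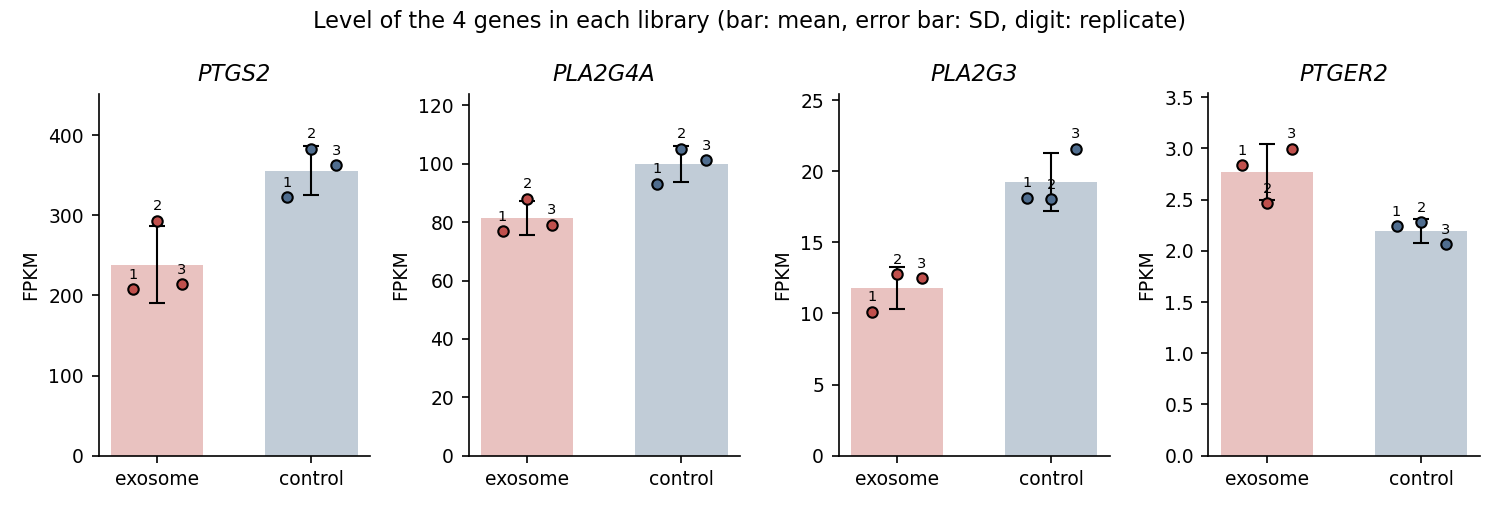
FPKM of each gene in the 3 exosome libraries (left) and the 3 control libraries (right); bars show the mean, error bars the SD and digits the replicate. In PTGS2, PLA2G4A and PLA2G3 every exosome library lies under every control library, and in PTGER2 every exosome library lies above, with exosome replicate 2 nearest to the control group each time.

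In the limma fit over all 10846 genes tested, 0 genes (0.0%) passed an adjusted p of 0.05, while 1362 genes (12.6%) had an unadjusted p under 0.05, 7.5% of genes being lower and 5.06% higher. Groups did not overlap in 4 of the 4 genes, beside 18.7% of all genes tested. By direction, 3 of the 4 were lower in every exosome library, beside 10.4% of genes tested, and 1 was higher, beside 8.29%. These counts follow from how the 4 were chosen. Exosome replicate 2 stood nearest to the control mean of the 3 exosome libraries in all 4 genes, beside 42.9% of genes tested. Its deviation from the control mean was 36.6% of the average of exosome replicates 1 and 3 for PTGS2 on the log2 scale, 51.2% for PLA2G4A, 76.4% for PLA2G3 and 40.2% for PTGER2. With that library left out, the log2 changes were -0.75 for PTGS2, -0.35 for PLA2G4A, -0.72 for PLA2G3 and 0.29 for PTGER2. In the same fit 297 of all genes tested (2.74%) passed an adjusted p of 0.05, 1.88% lower and 0.857% higher.

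**Figure D2:**
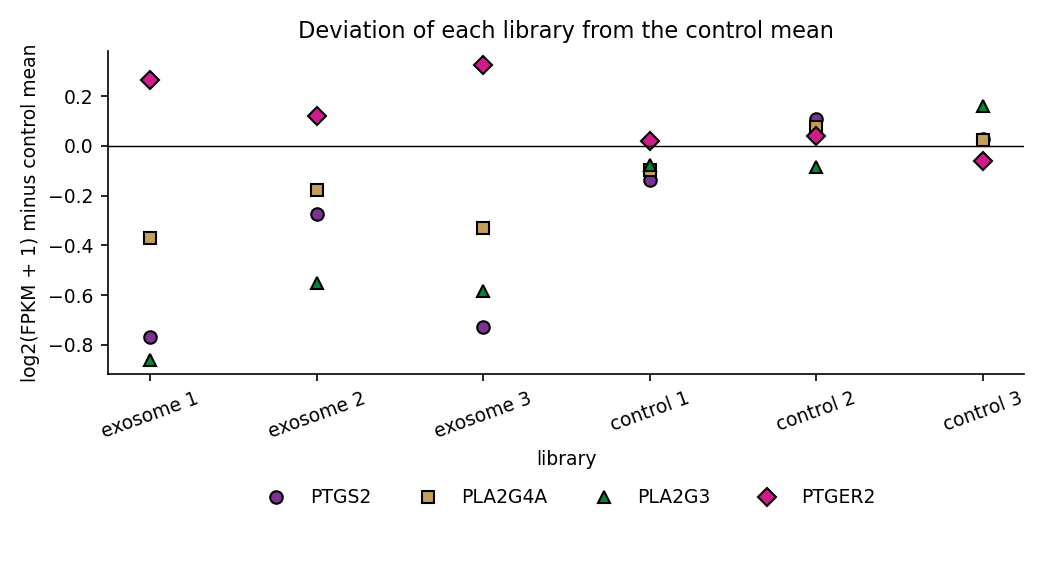
Difference of each library from the control mean on the log2(FPKM + 1) scale, 1 symbol per gene. Exosome replicates 1 and 3 lie between -0.33 and -0.86 for the 3 lower genes, exosome replicate 2 lies between -0.18 and -0.55, and PTGER2 lies above 0 in all 3 exosome libraries.

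Fewer cells of a type and less RNA per cell cannot be told apart in these bulk libraries. The summed level of the 9 epithelial markers measured was 8437 to 9351 FPKM in exosome and 9666 to 10010 FPKM in control libraries. Highest among the 9 were KRT19, KRT8 and KRT18. CLDN3, named here with its values known, has another symbol in the reference and was kept among the 9. The 5 stromal and fibroblast markers summed to 2274 to 2494 FPKM in exosome and 2788 to 3042 FPKM in control libraries. Both sums were lower in the exosome libraries with no overlap. Singly, 6 of the 9 epithelial markers and 1 of the 5 stromal markers were too, beside 10.4% of all genes tested. That stromal marker was THY1, and the sum of the other 4 was 505 to 597 FPKM in exosome and 562 to 678 FPKM in control libraries, with overlap. EPCAM, an epithelial adhesion molecule picked with its values known, stood at 358 ± 15.3 FPKM in exosome and 346 ± 12.5 FPKM in control libraries. It was the only epithelial marker with a log2 change above 0, against 8 below, where the median over all genes tested was -0.0023. The part of these markers in the values of the 4 genes was not tested.

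Levels of the 4 genes followed the same order in every library, PTGS2 above PLA2G4A above PLA2G3 above PTGER2, and no neighbours in that order came within their spread. By mean level PTGS2 ranked 347 and PLA2G4A 1188 among 10915 genes, so 96.8% and 89.1% of genes lay below them. PLA2G3 ranked 5324, near the middle, and PTGER2 9808. The PTGS2 level was 2.91 ± 0.366 times that of PLA2G4A within exosome libraries and 3.56 ± 0.0914 times within control libraries.

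The genome positions are those of RefSeq on Sscrofa11.1, the assembly in the submitters' processing notes. PTGS2 (ENSSSCG00000015579) lies on chromosome 9 from 127850164 to 127858866 and PLA2G4A (ENSSSCG00000023351) beside it on chromosome 9 from 127853581 to 128164825. The annotated spans of these 2 genes overlap by 5286 bases, 60.7% of the PTGS2 span and 1.70% of the PLA2G4A span. PLA2G3 (ENSSSCG00000010023) lies on chromosome 14 from 47923005 to 47928762. PTGER2 (ENSSSCG00000021862) lies on chromosome 1 from 181993961 to 182009959, within reach of PTGDR, a receptor for prostaglandin D, whose annotated span of 181953506 to 182006375 overlaps it. Libraries came from a stranded kit, but how reads in shared stretches were assigned is not given in the sources used here, so the values of PTGS2, PLA2G4A and PTGER2 carry that uncertainty.

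The rest of the pathway was read from 8 lists of 179 different symbols, of which 95 were matched to a gene, the 4 described above included. The others are not analysed here. Among the 91 remaining genes, 0 reached an adjusted p of 0.05 in limma. At an unadjusted p under 0.05 there were 17 (18.7%), of which 12 were lower and 5 higher, beside the 12.6% of all genes tested (7.5% lower and 5.06% higher). The counts at an unadjusted p in the single lists stand beside the same shares. Groups did not overlap in 17 of the 91 (18.7%), the same share as among all genes tested. Their median log2 change was -0.02, beside -0.0023 over all genes tested. With exosome replicate 2 left out, 6 of the 91 (6.59%) passed, beside 2.74% of all genes tested (0.857% higher and 1.88% lower). Of the 6, 4 were higher (ANXA1, AKR1C1, EPHX1 and IL1A) and 2 lower (LPCAT3 and MGST3). EPHX1, an epoxide hydrolase, lay outside the naming rule and was picked with its values known.

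**Figure D3:**
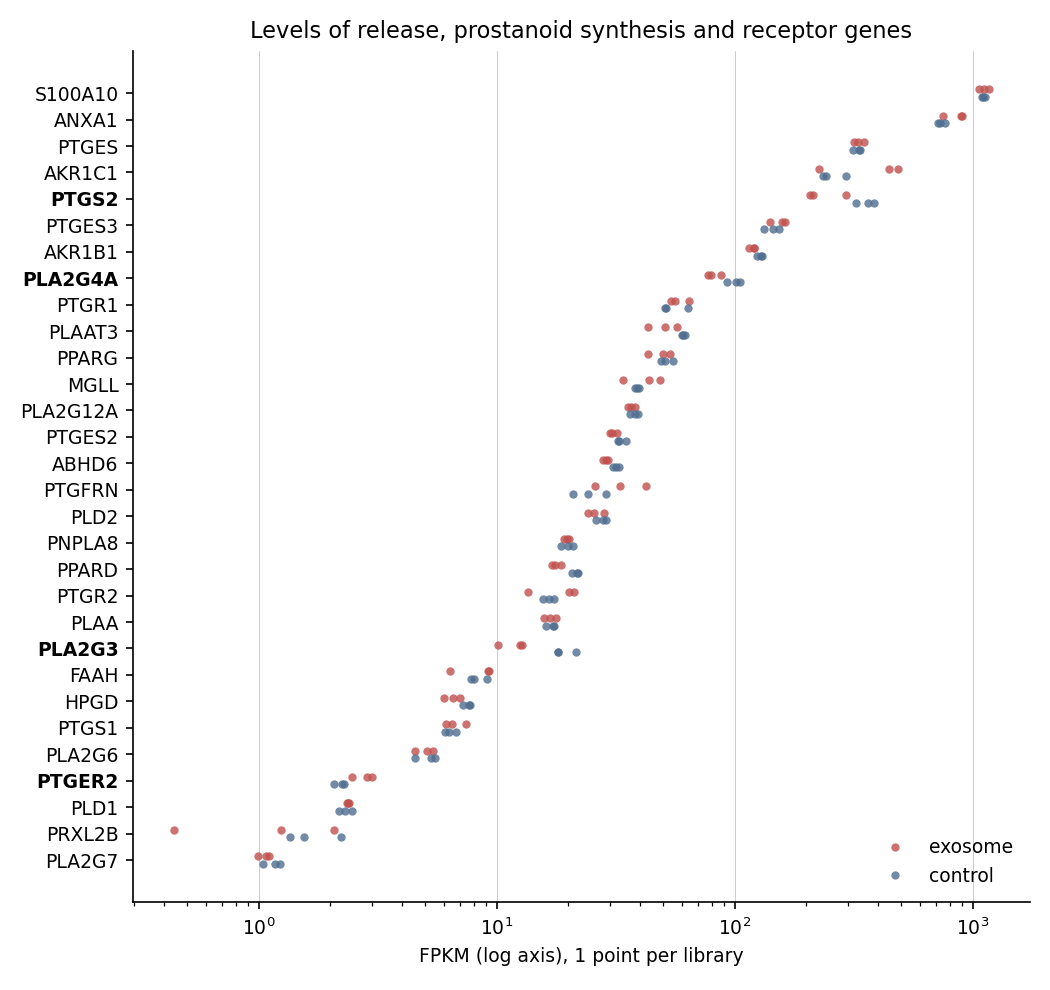
FPKM on a log axis of the release, prostanoid synthesis and receptor genes, 1 point per library, exosome above control in each row, with the 4 genes in bold. PTGES and PTGS2 sit at similar control levels, and PTGS1 lies far under PTGS2.

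Among 13 other genes of arachidonate release and its control, 1 was higher and 2 were lower at an unadjusted p under 0.05, and the median log2 change was -0.02. ANXA1, annexin A1, a protein known to restrain cytosolic phospholipase, was at 897, 748 and 906 FPKM in exosome libraries, against 766, 730 and 716 FPKM in control libraries. Exosome replicate 2 fell inside the control range there (log2 change 0.20, adjusted p = 0.361 in limma). PLAAT3, a phospholipase and acyltransferase, was at 50.4 ± 6.83 FPKM in exosome and 61.0 ± 1.11 FPKM in control libraries (log2 change -0.28). ABHD6, a lipase of monoacylglycerols, was at 28.7 ± 0.598 and 31.8 ± 0.861 FPKM (log2 change -0.14). Groups did not overlap in either of these lipases. The abundant S100A10, the partner of annexin A2, was at 1115 ± 53.9 and 1111 ± 17.4 FPKM.

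Reacylation returns free arachidonate to phospholipids. Of 10 genes listed for this step, a fatty acid binding protein included, 1 was higher and 2 were lower at an unadjusted p under 0.05. ACSL1, which activates fatty acids with coenzyme A, was at 29.0 ± 0.831 FPKM in exosome and 24.9 ± 0.355 FPKM in control libraries (log2 change 0.21, adjusted p = 0.234 in limma). Its relative ACSL3 stood on the other side, at 40.6 ± 0.553 and 45.7 ± 2.12 FPKM (log2 change -0.17). LPCAT3, which puts polyunsaturated acyl chains into phospholipids, was at 11.9 ± 1.99 and 14.6 ± 0.848 FPKM (log2 change -0.28), with exosome replicate 2 inside the control range. ACSL4, the ligase that favours arachidonate, was at 80.2 ± 10.7 and 83.8 ± 3.45 FPKM. The acyltransferases MBOAT1 and MBOAT7 had log2 changes of -0.05 and -0.01.

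Of 10 other genes of prostanoid synthesis and inactivation, 0 were higher and 2 were lower at an unadjusted p under 0.05. PTGES, the inducible prostaglandin E synthase that works with PTGS2, was at 317, 330 and 351 FPKM in exosome libraries, against 336, 334 and 315 FPKM in control libraries. These groups overlapped (log2 change 0.02, SE 0.05, adjusted p = 0.930 in limma). PTGS2 stood at 0.719 ± 0.150 times the PTGES level within exosome libraries and at 1.09 ± 0.109 times within control libraries. PTGS1, the constitutive cyclooxygenase, which lay outside the rule for named genes and was picked with its values known, had 6.69 ± 0.696 and 6.36 ± 0.344 FPKM (log2 change 0.06), with overlapping groups. The PTGS2 level was 35.5 ± 3.68 times that of PTGS1 within exosome libraries and 56.0 ± 4.36 times within control libraries.

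AKR1B1, an aldo-keto reductase with prostaglandin F synthase activity, was at 119 ± 3.71 FPKM in exosome and 128 ± 2.98 FPKM in control libraries (log2 change -0.11, adjusted p = 0.392 in limma). HPGD, the dehydrogenase that begins prostaglandin breakdown, was at 6.51 ± 0.502 and 7.54 ± 0.263 FPKM (log2 change -0.19). Groups did not overlap in these 2 genes. AKR1C1, of a family of closely similar reductases, was at 445, 226 and 488 FPKM in exosome libraries, against 295, 242 and 234 FPKM in control libraries. Exosome replicate 2 was the lowest of all 6 libraries and the other exosome libraries were the highest (log2 change 0.52, SE 0.26), and reads may be split among its relatives.

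Of 12 symbols in the receptor list 4 were matched, and PTGER2 was the only G protein-coupled prostanoid receptor among them. PTGFRN, a regulator of the prostaglandin F receptor, was at 25.9, 33.0 and 42.3 FPKM in exosome libraries, against 24.1, 20.9 and 28.9 FPKM in control libraries, and these groups overlapped (log2 change 0.42, SE 0.18). PPARD, a nuclear receptor for fatty acids and their derivatives, was at 17.8 ± 0.831 and 21.5 ± 0.646 FPKM, with no overlap (log2 change -0.26, adjusted p = 0.234 in limma). PPARG, of the same receptor family, was at 48.8 ± 5.17 and 51.5 ± 3.16 FPKM.

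In the leukotriene and epoxide branches, 0 of 8 genes were higher and 1 was lower at an unadjusted p under 0.05. MGST3, a microsomal glutathione transferase, was at 73.3, 79.5 and 82.5 FPKM in exosome libraries, against 95.5, 95.6 and 98.5 FPKM in control libraries. No exosome library reached the control range (log2 change -0.30, adjusted p = 0.170 in limma). MGST2, a related transferase, was at 122 ± 22.4 and 137 ± 10.5 FPKM, and LTA4H, leukotriene A hydrolase, at 64.5 ± 9.19 and 59.0 ± 1.74 FPKM, both with overlapping groups.

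A list of 20 genes held signals and transcription factors known to switch on PTGS2, with receptors and an inhibitor of such factors. Of the 20, 1 was higher and 2 were lower at an unadjusted p under 0.05, beside 5.06% higher and 7.5% lower among all genes tested. Their median log2 change was -0.03. IL1A, an epithelial cytokine that induces PTGS2, was at 66.1, 47.3 and 60.0 FPKM in exosome libraries, against 48.4, 40.8 and 41.3 FPKM in control libraries (log2 change 0.39, SE 0.12, adjusted p = 0.304 in limma). Exosome replicate 2 was inside the control range, while the other exosome libraries were above it. CEBPD, a factor that binds the PTGS2 promoter in other mammals, was at 76.3 ± 3.27 and 87.6 ± 2.34 FPKM (log2 change -0.20). FOS, a subunit of AP-1, was at 22.3 ± 1.41 and 27.4 ± 1.28 FPKM (log2 change -0.29), and groups did not overlap in either factor. The epidermal growth factor receptor ligands EREG and AREG were abundant, at 1004 ± 62.2 and 1007 ± 80.4 FPKM for EREG and at 368 ± 24.1 and 340 ± 23.1 FPKM for AREG. HIF1A, the hypoxia factor, was at 200.1 ± 3.60 and 211 ± 10.5 FPKM.

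Of 12 genes that govern PTGS2 mRNA stability, 0 had an unadjusted p under 0.05 in limma in either direction, and groups overlapped in each. DUSP1, the phosphatase that limits p38 signalling, was at 187 ± 12.8 FPKM in exosome and 205 ± 6.67 FPKM in control libraries (log2 change -0.13). The RNA-binding proteins RBM3 and HNRNPD had log2 changes of -0.04 and 0.07.

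Of 15 genes of the cyclic AMP route that PTGER2 feeds, 1 was higher and 2 were lower at an unadjusted p under 0.05. PRKAR2B, a regulatory subunit of protein kinase A, was at 6.83, 6.59 and 12.1 FPKM in exosome libraries, against 0.869, 1.92 and 4.54 FPKM in control libraries. The groups did not overlap, and each group was widely spread (log2 change 1.56, SE 0.38, adjusted p = 0.234 in limma). NR4A2, a nuclear receptor induced by cyclic AMP, was at 7.45 ± 0.503 and 9.11 ± 0.788 FPKM (log2 change -0.26). PDE4B, which degrades cyclic AMP, was at 17.6 ± 1.46 and 20.8 ± 1.63 FPKM (log2 change -0.23). GNAS, the stimulatory G protein subunit, and the kinase subunits PRKAR1A and PRKAR2A had log2 changes of -0.06, -0.11 and 0.15.

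**Figure D4:**
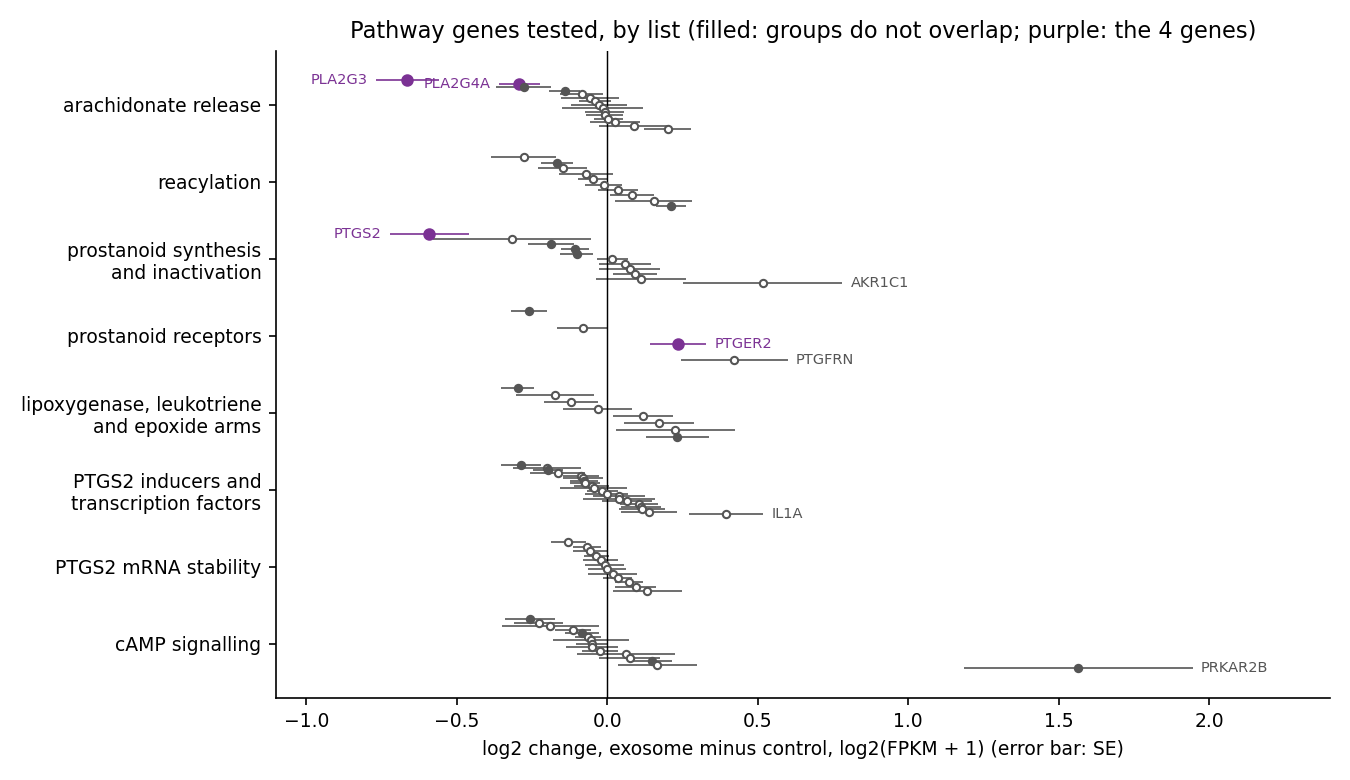
Log2 change, exosome minus control, with its SE for the pathway genes tested, by list; filled points are genes whose groups do not overlap and purple marks the 4 genes. Most other genes lie within 0.3 of 0, and PRKAR2B stands far to the right at 1.56.

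Genes with the profile most like each of the 4 were found by the root mean square difference between centred log2 values over the 6 libraries, so genes were matched in both shape and size of change. For PTGS2 these were TMEM35, MVK and ACSS2, at differences of 0.04, 0.05 and 0.07, where the PTGS2 profile itself had a root mean square of 0.34. MVK, mevalonate kinase, had a log2 change of -0.59. For PLA2G4A they were MOCS1, ATP6V1C2 and DUSP28 (0.02, 0.02 and 0.03, against 0.17 for its own profile). For PLA2G3 they were KRT14, BCAS1 and PRSS16 (0.09, 0.10 and 0.10, against 0.36), so its match was the least close. For PTGER2 they were PRDX1, CYP2U1 and DLGAP5 (0.02 each, against 0.14). None of the 4 was among the nearest 3 of another, and PTGS2, at 0.16 from PLA2G3, ranked 25 among the genes most like it. With 6 libraries and many genes, close matches arise readily, so these are a description.

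**Figure D5:**
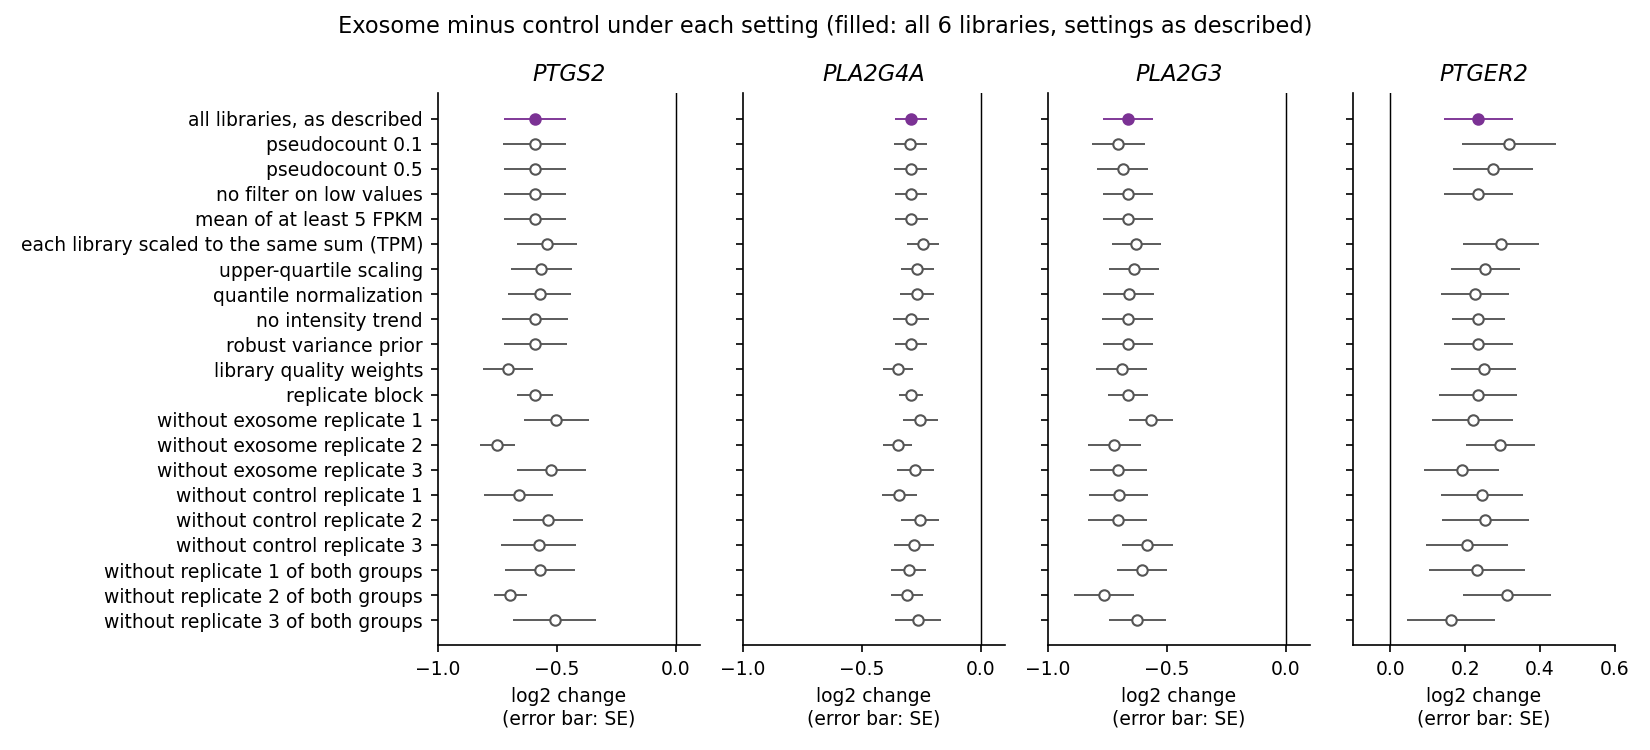
Log2 change, exosome minus control, with its SE for each of the 4 genes under each processing setting; the filled point is the value from all 6 libraries. PTGS2 lies between -0.75 and -0.50, PLA2G4A between -0.35 and -0.24, PLA2G3 between -0.76 and -0.57 and PTGER2 between 0.16 and 0.32.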

How the data were processed

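RNA of 3 exosome and 3 control libraries was analysed. Reads had been demultiplexed with bcl2fastq 1.8.4, and TopHat, Cufflinks and the Sscrofa11.1 assembly were used, per the submitters' processing notes; their roles, the other versions, the annotation and any filters are not given here. Values deposited by the authors were read as FPKM, going by the tool named and by their range, as no header gives a unit. No value was 0 and the lowest was 0.0882, so genes silent in a group cannot be seen. Ratios to control replicate 1 were examined in the 498 genes averaging under 1.5 FPKM. The densest window, 0.001 wide on the natural log scale, held 7 to 16 genes, against a median of 1. How full the densest window would be without whole-fragment steps was not computed, so these counts do not show such steps. Several searches for fragment numbers, made after the data were seen, found whole numbers in only a small share of genes. They differed in their scaling factors and in whether PLA2G3 came out whole, so no fragment numbers, count test or counting intervals are given.

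Columns were matched to samples by title. The tested set was 10846 genes averaging 1 FPKM or more (69 left out), on log2(FPKM + 1) with limma 3.58.1 in R 4.3.3, two-sided. The variance prior depended on mean level (limma-trend), 4 residual degrees of freedom remained, and Benjamini-Hochberg adjustment ran over all genes tested; adjusted p-values are from limma. Figures used Python 3.11.15 and matplotlib 3.10.9.

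The 4 genes and the lists were chosen with earlier results of these data known. Named genes were the 4, list genes with an unadjusted p under 0.05 (up to 8 per list), the 3 most abundant genes of each list or cell type and the 3 genes most like each of the 4; any other gene is marked as picked with its values known. Symbols were those of the deposited table, with 12 list symbols matched through the reference table by identifier and 2 through synonyms. Of 11 sperm and male tract symbols 0 were matched. The SD of log2 ratios between libraries was 0.22 to 0.25 within the exosome group, 0.17 to 0.21 within the control group and 0.20 to 0.26 between groups, so none was a copy. For exosome replicate 2 it was 0.244 and 0.251 against the other exosome libraries. Against control replicates 1, 2 and 3 it was 0.231, 0.203 and 0.201, so this library lay nearer to the controls. Promoter and protein sequences are not used here. Results were recomputed with another pseudocount, filter, scaling or variance model, with a replicate block and with libraries left out.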

Additional observations from a re-analysis of the deposited data

How the results depend on the processing

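All 4 genes kept their direction under every alternative run. Their groups did not overlap, so only a change of scaling could have reversed it. The outcome of the other runs was fixed in advance in this respect. Leaving out libraries, PTGS2 lay between -0.75 and -0.50, PLA2G4A between -0.35 and -0.25, PLA2G3 between -0.76 and -0.57 and PTGER2 between 0.16 and 0.31 (log2 changes). PTGS2, PLA2G4A and PLA2G3 passed an adjusted p of 0.05 in limma without exosome replicate 2 (-0.75, -0.35 and -0.72), PTGS2 also without replicate 2 of both groups (-0.69), and PTGER2 in none. The 4 were chosen on these libraries' values, which favours such passes, so they support nothing. Under other settings the log2 changes lay from -0.71 to -0.54, -0.35 to -0.24, -0.70 to -0.63 and 0.23 to 0.32 in the same order of genes; a minimum mean of 5 FPKM left PTGER2 untested. The number of genes passing ranged from 0 to 297 with libraries left out: 297 when exosome replicate 2 was dropped, 58 when replicate 2 of both groups was, and 1 when control replicate 3 or replicate 3 of both groups was. Library quality weights, which gave exosome replicate 2 the lowest weight (0.412), raised it to 15 (6 higher, 9 lower); the cause was not tested.

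With the replicate number as a block, 0 genes passed in limma (1329 at an unadjusted p under 0.05). The log2 changes of the 4 stayed at -0.59, -0.29, -0.66 and 0.24, which the balanced layout fixes in advance. Their SEs were 0.077, 0.051, 0.084 and 0.104 with the block, against 0.130, 0.069, 0.105 and 0.092 without it. Deviations from the group means correlated at 0.161, 0.144 and -0.0701 between same-numbered libraries and at -0.271 to 0.169 between the other exosome and control libraries. These values and the labels do not settle whether the numbers pair the libraries.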

Other observations

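The region of chromosome 9 that holds PTGS2 and PLA2G4A had 3 other protein-coding genes with values within 1 Mb of either, and none was lower in the exosome libraries. TPR, a nuclear pore protein, was at 28.5 ± 1.21 FPKM in exosome and 26.6 ± 0.980 FPKM in control libraries (SD, n = 3 each), with a log2 change of 0.10. CENPF, a kinetochore protein, was at 13.4 ± 1.84 and 12.2 ± 0.680 FPKM (log2 change 0.11), and PTPN14, a tyrosine phosphatase, at 3.83 ± 0.524 and 3.29 ± 0.329 FPKM (log2 change 0.17). Groups did not overlap in PTPN14 and overlapped in the other genes. Around PLA2G3 on chromosome 14, 24 such neighbours had values and groups overlapped in 22 of them. Neighbours without overlap, here and around the other genes, stand beside 18.7% of all genes tested. The log2 change was below 0 in 14 of the 24 and above 0 in 10. DEPDC5, of a complex that restrains mTORC1, was higher with no overlap, at 2.87 ± 0.145 and 2.69 ± 0.00779 FPKM (log2 change 0.07, adjusted p = 0.753 in limma). LIF, a cytokine of embryo implantation, was lower, at 20.5 ± 1.33 FPKM in exosome and 25.9 ± 3.07 FPKM in control libraries (log2 change -0.32, adjusted p = 0.284 in limma), with no overlap. Around PTGER2 on chromosome 1, 8 neighbours had values, with a log2 change above 0 in 7 and below 0 in 1. Groups overlapped in 7 of the 8. FRMD6, a scaffold protein of the Hippo pathway, was higher with no overlap, at 28.6 ± 1.82 and 24.3 ± 0.393 FPKM. Its log2 change was 0.22 (adjusted p = 0.270 in limma). These neighbours were chosen after their values were seen.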
